A study of Homo sapiens with 12 samples.

Results

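The comparison was between AGS cells kept in mycophenolic acid (MPA) for 24 h and AGS cells kept in it for 12 h, both at 2 µg/ml. AGS is an established human gastric cancer cell line. The members were the 2 arrays labelled 24 h and the 2 arrays labelled 12 h, which are 4 of the 12 arrays of the series. The other arrays held untreated cells (0 h, 4 arrays) and cells treated for 48 and 72 h (2 arrays each). They entered the estimate of the spread and give the levels before and after the interval, but not the difference itself. Cells without MPA were measured at 0 h alone, so that the length of exposure to MPA and the time in culture cannot be told apart. The labels number the arrays of a time as replicates without saying that they came from separate cultures, and the p-values measure only the spread between such arrays, which may be technical.

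MPA blocks inosine monophosphate dehydrogenase (IMPDH), the enzyme that commits inosine monophosphate to guanine nucleotides. Cells that run short of guanine nucleotides slow the synthesis of ribosomal RNA and DNA, and can activate the p53 transcription factor. Dividing cells depend on this route more than resting cells, which is the basis of the use of MPA as an immunosuppressant.

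Each array measured 48803 probes. Probes were called detected at a detection p under 0.01, and 14464 and 15030 were detected on the 12 h arrays and 15764 and 15192 on the 24 h arrays. The number of arrays, 2 a time, limits the precision. Of 7 epithelial markers with a probe, 5 were detected on all 4 arrays, with EPCAM, KRT19 and KRT8 as the brightest, and KRT18 was detected on none. The summed intensity of the epithelial list was 49300 to 50900 at 12 h and 50800 to 57700 at 24 h. Of 8 fibroblast markers, 7 were detected on none of the 4 arrays (COL1A2, DCN, LUM and PDGFRB among them), and the sum of the list was 223 to 236 at 12 h and 221 to 225 at 24 h. Likewise 7 of 8 endothelial markers were detected on none, VWF and CDH5 among them (225 to 245 and 220 to 236). Of 7 leukocyte markers with a probe, 5 were detected on none, PTPRC and CD3E among them, and LYZ and CD68 on all 4 (4320 to 4580 at 12 h and 3680 to 4110 at 24 h). In RNA of a whole culture, a change in how many cells hold a transcript and a change in its amount per cell cannot be told apart.

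Of 10469 genes measured, 481 rose and 242 fell from 12 to 24 h (limma, Benjamini-Hochberg adjusted p under 0.05), which is 4.59% and 2.31% of the genes tested. The median of all genes was at 0 on the log2 scale. Changes were more often large among the rises: 154 of the higher genes differed 2-fold or more, against 22 of the lower genes, and 14 higher genes and 0 lower genes differed 4-fold or more. The higher genes started from dim signals. Their median level at 12 h was 7.76 on the log2 scale of normalized intensity, against 8.61 for the lower genes and 8.86 for all genes. For 87 of the higher genes the probe was detected on neither 12 h array, and for 21 of the lower genes on neither 24 h array. In all 723 called genes both 24 h arrays lay on the same side of both 12 h arrays, as they did in 27.3% of all genes for 24 h above and 26.6% for 24 h below.

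**Figure D1:**
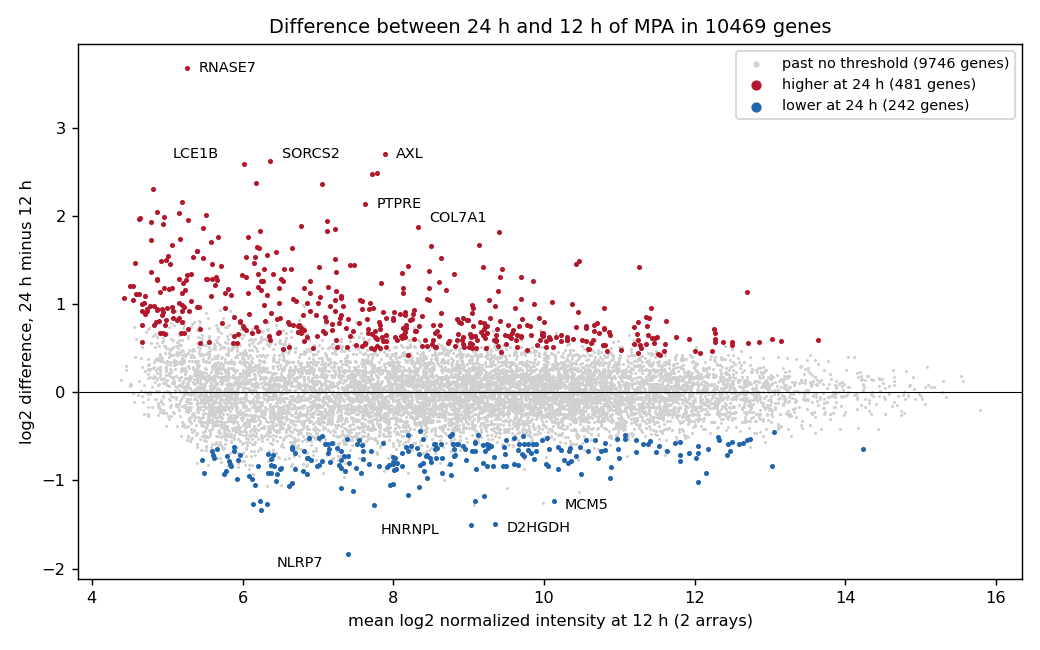
Log2 difference between 24 h and 12 h of MPA (vertical axis) against the mean log2 normalized intensity at 12 h (horizontal axis) for 10469 genes, 1 point a gene, with genes called higher in red (481) and lower in blue (242). The rises reach 3.68 and are largest among genes dim at 12 h, while the deepest fall is -1.84.

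Genes known from the outer layers of skin stood among the largest rises. RNASE7, which encodes an antimicrobial ribonuclease of the skin, measured 5.29 and 5.22 on the 12 h arrays and 8.96 and 8.91 on the 24 h arrays. Its probe was not detected at 12 h, so the rise is at least 9.78-fold (measured difference 3.68 ± 0.16 SE on the log2 scale, limma adjusted p = 1.9e-07). Here and below such a bound sets the brighter mean against the lowest detected signal of the dimmer arrays or the probe's own signal, whichever is higher. LCE1B, a late cornified envelope protein, measured 6.28 and 5.76 at 12 h and 8.41 and 8.81 at 24 h, a difference of 2.59 ± 0.20 (adjusted p = 1.9e-05). LGALS7, the epithelial lectin galectin-7, went from 6.14 and 6.22 to 8.38 and 8.74, a difference of 2.38 ± 0.25 (adjusted p = 0.00011). Its near-identical copy LGALS7B has a probe of its own that also rose (1.71), but the probes may not tell the copies apart. ABCA12, the lipid transporter of lamellar granules, measured 5.26 and 5.13 at 12 h, where it was not detected, and 7.24 and 7.47 at 24 h, at least 3.27-fold higher (adjusted p = 4.5e-05).

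A list of 71 genes of the skin barrier and the cornified envelope was drawn up after these rises had been seen, and is therefore only a description. Of these, 65 had a probe and 26 passed the filter on dim signals. The genes that rose were 11 (42.3%, against 4.59% of all genes), 4 of them given above, and the genes that fell were 0. Of the 11, 9 were detected on none of the 0 h arrays and 6 on neither 12 h array, so that passing the filter and rising are not separate facts for them. TGM5, a transglutaminase that cross-links the cornified envelope, measured 5.35 and 5.45 at 12 h and 7.04 and 6.97 at 24 h, at least 2.57-fold higher. FLG, the keratin-bundling filaggrin, measured 4.75 and 5.36 against 6.01 and 6.05, at least 1.31-fold higher, and was detected at 24 h but on no 0, 12, 48 or 72 h array. KRT15, a basal keratin, measured 6.55 and 6.35 at 12 h and 7.94 and 8.14 at 24 h, a difference of 1.59 ± 0.14 (limma adjusted p = 4.5e-05). The remaining rises of the list were LCE1A, LGALS7B, TMEM40 and COL7A1. Some members with a bright signal at 12 h moved little: the plakin genes EVPL and PPL differed by -0.24 and -0.05, KRT10 by 0.07 and SFN by 0.23, none of them past the threshold. COL7A1, also clearly detected at 12 h, did rise, with values given below.

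The rises were not limited to such genes. AXL, a receptor tyrosine kinase, measured 7.93 and 7.86 at 12 h and 10.56 and 10.65 at 24 h, a difference of 2.71 ± 0.28 (limma adjusted p = 0.00011), and a second probe gave 2.82. SORCS2, a sorting receptor for neurotrophins, measured 5.90 and 6.84 at 12 h and 9.04 and 8.95 at 24 h, a difference of 2.63 ± 0.25 (adjusted p = 5.8e-05). The 12 h arrays of SORCS2 differed by more than those of any other of the 12 largest rises. Both lay below both 24 h arrays, as the choice of these genes required. AKR1B10, an aldo-keto reductase that reduces retinal, measured 7.62 and 7.96 against 10.31 and 10.26, a difference of 2.49 ± 0.15 (adjusted p = 1.8e-06). SUGCT, a mitochondrial coenzyme A transferase, measured 7.72 and 7.71 against 10.08 and 10.31, a difference of 2.48 ± 0.13 (adjusted p = 4.5e-07). CYGB, the globin cytoglobin, measured 6.86 and 7.26 against 9.31 and 9.54, a difference of 2.37 ± 0.18 (adjusted p = 1.6e-05). AXL, AKR1B10, SUGCT and CYGB differed between the times by far more than the arrays of a time differed from each other. This follows in part from their choice among the largest called rises.

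PTPRE, a protein tyrosine phosphatase, measured 7.71 and 7.56 at 12 h and 9.65 and 9.89 at 24 h, a difference of 2.14 ± 0.14 (limma adjusted p = 4.3e-06), and its second probe gave 2.04. RAB3IL1, an exchange factor of RAB GTPases, was not detected at 12 h (4.95 and 4.68) and measured 7.08 and 7.17 at 24 h, at least 2.79-fold higher. LCN15, a lipocalin, was likewise not detected at 12 h (4.80 and 4.92) and measured 6.69 and 7.13, at least 2.40-fold higher. All 12 of the largest rises kept their call in each alternative run whose filter they passed. The run with genes detected on all 12 arrays left out those not detected on a 0 h array, among them the 8 detected on none. All 12 also kept their direction in the fits without each of the 4 arrays in turn. In those fits the lone array of a time is taken to vary like the other groups.

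**Figure D2:**
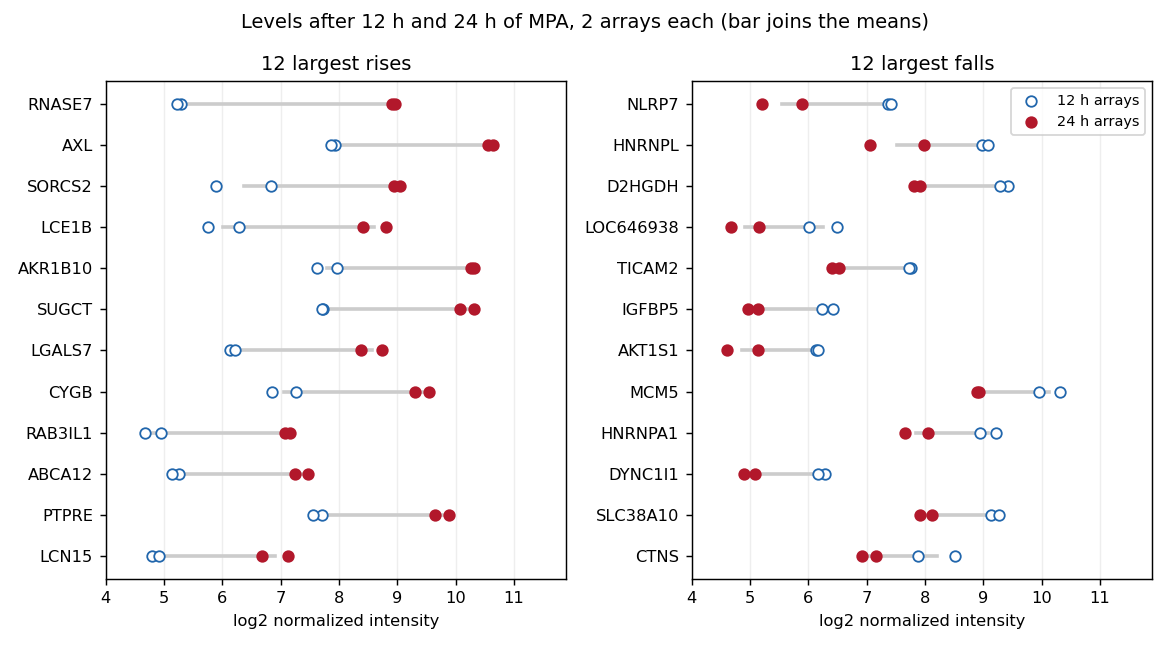
Log2 normalized intensity (horizontal axes) of the 12 largest rises (left) and the 12 largest falls (right) on the 12 h arrays (open blue points) and the 24 h arrays (filled red points), with a bar between the means. The points of the 2 times do not overlap in any of these genes, which was a condition for choosing them. The bars of the rises (2.05 to 3.68) are longer than those of the falls (-1.84 to -1.16).

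The deepest fall was that of NLRP7, a NOD-like receptor of the inflammasome family, which measured 7.37 and 7.42 at 12 h and 5.90 and 5.20 at 24 h, a difference of -1.84 ± 0.20 (limma adjusted p = 0.00013). It was detected on 1 of the 24 h arrays, and its other probes on neither. D2HGDH, the mitochondrial dehydrogenase of D-2-hydroxyglutarate, measured 9.43 and 9.28 against 7.91 and 7.82, a difference of -1.49 ± 0.14 (adjusted p = 5.5e-05). TICAM2, an adaptor of Toll-like receptor 4, measured 7.76 and 7.72 against 6.52 and 6.40, a difference of -1.28 ± 0.13 (adjusted p = 7e-05). In each of these genes the 24 h arrays lay below the 12 h arrays without overlap, which was a condition for choosing them.

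IGFBP5, which binds insulin-like growth factors, measured 6.42 and 6.24 at 12 h and 4.97 and 5.14 at 24 h, where it was not detected, at least 1.83-fold lower (limma adjusted p = 0.0024). AKT1S1, an inhibitory subunit of the mTOR complex 1, measured 6.13 and 6.16 against 5.14 and 4.61, at least 1.62-fold lower. SLC38A10, a putative amino acid transporter, measured 9.13 and 9.27 against 8.12 and 7.92, a difference of -1.18 ± 0.14, and its second probe gave -0.34 (adjusted p = 0.41). CTNS, the lysosomal cystine exporter, measured 8.52 and 7.88 against 7.16 and 6.92, a difference of -1.16 ± 0.19 (adjusted p = 0.0033).

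The RNA-binding proteins HNRNPL and HNRNPA1, which bind pre-mRNA and regulate splicing, were among the 12 largest falls but varied more between arrays. HNRNPL measured 8.98 and 9.08 at 12 h and 7.98 and 7.06 at 24 h, a difference of -1.51 ± 0.40 (limma adjusted p = 0.04). HNRNPA1 measured 8.95 and 9.22 against 8.05 and 7.66, a difference of -1.23 ± 0.28 (adjusted p = 0.02), with -0.38 for a second probe. The call of HNRNPL was lost without 12 h replicate 1, 12 h replicate 2 or 24 h replicate 2 (adjusted p = 0.11, 0.19 and 0.28), and that of HNRNPA1 without any 1 of the 4 arrays (adjusted p = 0.05 to 0.16). In a list of hnRNP genes drawn up after these falls were seen, 2 of 24 measured members were lower (8.33%, against 2.31% of all genes) and 0 higher. The median was -0.09. The 2 lower members were HNRNPL and HNRNPA1 themselves, which had prompted the list, so the share is only a description. DYNC1I1, a dynein intermediate chain, was at least 1.71-fold lower and lost its call without 24 h replicate 1 (adjusted p = 0.05). LOC646938, which carries no gene symbol, was at least 1.74-fold lower and lost it without any 1 of the 4 arrays (adjusted p = 0.05 to 0.16).

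The arrays of 48 and 72 h, compared with 0 h, show where these genes stood later. The 4 arrays above are not part of that difference, but they entered its normalization and its estimate of the spread. In that comparison, 24.6% of all genes were higher and 26.6% lower. Of the 481 genes that rose between 12 and 24 h, 369 (76.7%) were higher at 48 and 72 h than at 0 h, 27 were lower and 85 were not called. Of the 242 that fell, 198 (81.8%) were lower, 3 were higher and 41 were not called. When the arrays of 0, 48 and 72 h were normalized and fitted alone, a check added after the data were seen, the shares were 76.1% of the rises and 81% of the falls, against 24.1% and 25.9% of all genes. In the fit of all 12 arrays, the 369 are 14.4% of all 2571 genes higher there, and the 198 are 7.12% of all 2780 genes lower there. All 12 of the largest rises were higher and 10 of the 12 largest falls were lower, the exceptions being HNRNPL (0.24, adjusted p = 0.51) and LOC646938 (-0.47, adjusted p = 0.09). Of the 12 rises, 8 were detected on no 0 h array, so a later level below 0 h could hardly have been seen. The comparison takes the mean of 48 and 72 h, and RAB3IL1, RNASE7 and SORCS2 were detected on no 72 h array.

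After 24 h the largest rises followed different courses. The mean at 48 h was above that at 24 h in 6 of the 12 and below it in 6, and the mean at 72 h was below it in 10. RNASE7 measured 8.26 and 7.81 at 48 h and 5.58 and 5.25 at 72 h, where it was no longer detected. SORCS2 measured 6.73 and 6.78 at 48 h and 5.52 and 5.19 at 72 h, and RAB3IL1 5.62 and 5.46 and then 4.89 and 4.93. These 3 genes had their highest values of all 12 arrays on the 24 h arrays. The means of ABCA12 were 8.92 at 48 h and 8.50 at 72 h, and those of SUGCT 11.48 and 10.44, above their 24 h values. Among the falls, NLRP7 was at 4.51 at 48 h and 4.58 at 72 h, not detected at either time, whereas TICAM2 was at 7.35 and 7.82 and so near its 12 h level again.

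**Figure D3:**
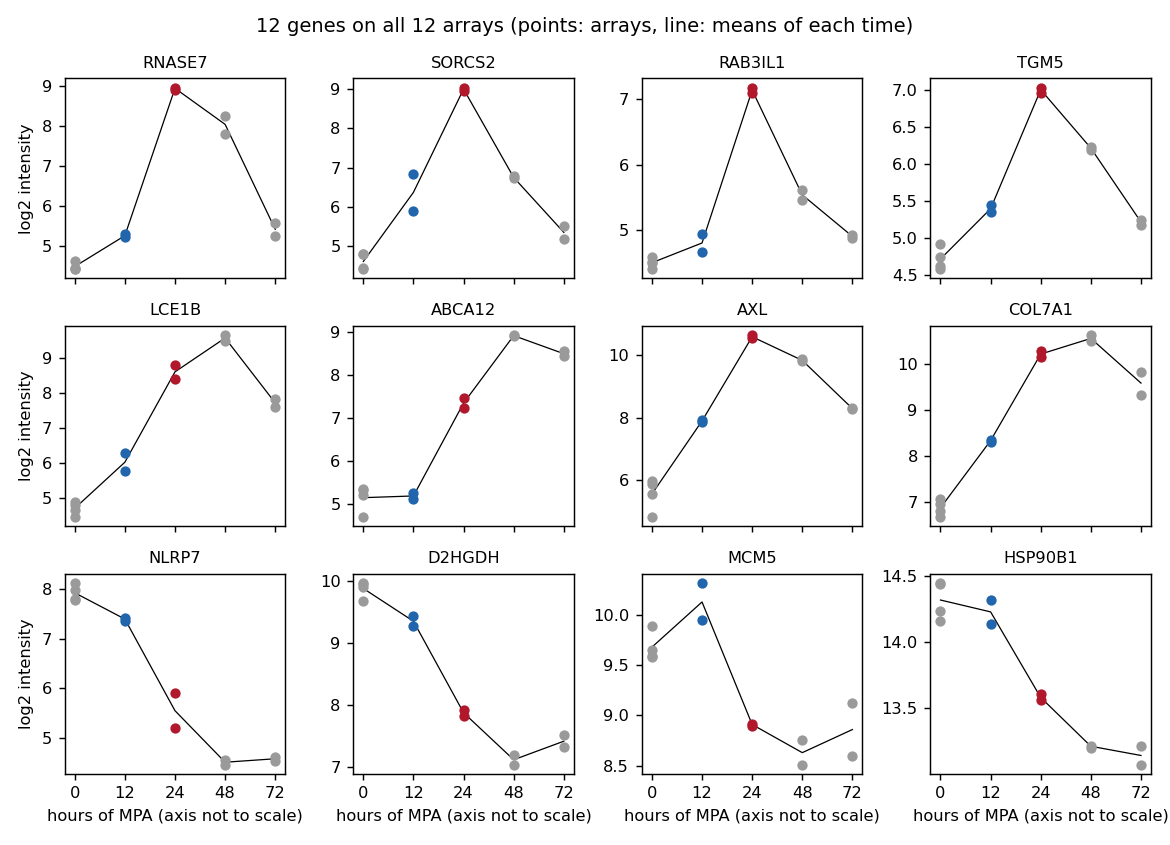
Log2 intensity (vertical axes) of 12 genes on each of the 12 arrays against hours of MPA (horizontal axes, evenly spaced and not to scale), with 12 h in blue, 24 h in red, the other times in grey and a line through the means. RNASE7, SORCS2, RAB3IL1 and TGM5 are highest at 24 h, ABCA12 goes on to a mean of 8.92 at 48 h, and NLRP7, D2HGDH, MCM5 and HSP90B1 stay below their 12 h levels.

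The transcripts of the drug target moved little over the interval. IMPDH2, the main isoform of proliferating cells, measured 13.04 and 13.09 at 12 h and 13.07 and 13.11 at 24 h, a difference of 0.03 ± 0.14 (limma adjusted p = 0.94). IMPDH1 measured 10.04 and 10.26 against 9.74 and 9.98, a difference of -0.29 ± 0.17 (adjusted p = 0.34). Of the 7 measured genes of guanine nucleotide synthesis and salvage, GUK1 alone was called (14.3% lower, against 2.31% of all genes). It encodes guanylate kinase, which phosphorylates GMP, and measured 11.32 and 11.30 against 10.72 and 10.72, a difference of -0.59 ± 0.13 (adjusted p = 0.019), a call lost without any 1 of the 4 arrays (adjusted p up to 0.11 over the settings run). Among de novo purine genes 0 of 10, and among pyrimidine genes 0 of 11, were called, with medians of -0.09 and -0.16. Of all genes 4.59% were higher and 2.31% lower, so 0 calls in lists this short are near the share of all genes.

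In the folate and one-carbon list, 2 of 15 members were higher (13.3%, against 4.59% of all genes) and 0 lower, with a median of -0.08. Both calls held without each array. ALDH1L1, which oxidizes 10-formyltetrahydrofolate, measured 6.16 and 6.27 at 12 h and 7.78 and 7.93 at 24 h, a difference of 1.64 ± 0.24 (limma adjusted p = 0.0014). CBS, which makes cystathionine from homocysteine and serine, measured 9.57 and 9.31 against 10.94 and 10.74, a difference of 1.40 ± 0.18 (adjusted p = 0.00047). ALDH1L1 was detected on no 0 h array.

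Of the genes of DNA replication and G1/S, 7 of 29 measured members were lower (24.1%, against 2.31% of all genes) and 0 higher, with a median of -0.26 (all genes 0). MCM5, a subunit of the replicative helicase, measured 9.95 and 10.32 at 12 h and 8.90 and 8.92 at 24 h, a difference of -1.23 ± 0.19 (limma adjusted p = 0.0021). CCNE1, the cyclin that drives entry into S phase, measured 11.95 and 12.08 against 11.23 and 11.31, a difference of -0.75 ± 0.14 (adjusted p = 0.0059). A second probe of CCNE1 gave -0.45 (adjusted p = 0.4). MCM2, of the same helicase, measured 11.07 and 11.37 against 10.57 and 10.51, a difference of -0.68 ± 0.17 (adjusted p = 0.032). The others were MCM6 (-0.53) of the same helicase, CDC45 (-0.57), which binds it, UHRF1 (-0.56), which maintains DNA methylation at forks, and POLE2 (-0.48), a subunit of DNA polymerase epsilon. The level of MCM5 at 12 h lay above its 0 h mean of 9.68 ± 0.15 (SD, n = 4), and that of CCNE1 above 11.10 ± 0.09. PCNA differed by 0.06, CDC6 by 0.14 and RRM1 by 0.20, none past the threshold. The count of 7 is fragile: it was 3, 1, 1 and 2 without 12 h replicates 1 and 2 and 24 h replicates 1 and 2, and MCM5 was the member that kept its call in all 4 of these fits.

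In the G2/M and mitosis list, with 30 genes measured, 1 was lower (3.33%, near the 2.31% of all genes) and 0 higher, with a median of -0.04. CDC25B, a phosphatase that activates cyclin-dependent kinases, measured 12.58 and 12.70 against 12.14 and 11.99, a difference of -0.57 ± 0.13 (limma adjusted p = 0.018), and lost its call without 12 h replicate 2 or either 24 h array (adjusted p up to 0.16 over the settings run). Of the other cell cycle genes, CDK4 was lower (-0.55, adjusted p = 0.016) and CDKN2D, an inhibitor of CDK4, was higher (0.91, adjusted p = 0.0089). The call of CDK4 was lost without either 12 h array or without 24 h replicate 1, that of CDKN2D without 12 h replicate 1 or 24 h replicate 2, and both under median scaling (adjusted p = 0.1 and 0.058).

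Genes of DNA replication are textbook targets of the E2F factors, and their promoters were read for the letters of E2F sites. The promoter sequences are those of RefSeq (GRCh38.p14), from 250 bases before to 50 bases after the start of a gene. TTTCCCGC or TTTGGCGC was searched on both strands. These letters occurred in 2.31% of 27305 promoters, in 13 of the 27 measured replication genes with a promoter entry, and in 3 of 6 of those that fell (MCM6, POLE2 and UHRF1). A match is a description and not a site, and genes that fell and genes that did not both hold it. The promoter of MCM6 (chr2:135876394-135876693, minus strand) is shown because it holds the letters at 2 places, set in capitals.
MCM6: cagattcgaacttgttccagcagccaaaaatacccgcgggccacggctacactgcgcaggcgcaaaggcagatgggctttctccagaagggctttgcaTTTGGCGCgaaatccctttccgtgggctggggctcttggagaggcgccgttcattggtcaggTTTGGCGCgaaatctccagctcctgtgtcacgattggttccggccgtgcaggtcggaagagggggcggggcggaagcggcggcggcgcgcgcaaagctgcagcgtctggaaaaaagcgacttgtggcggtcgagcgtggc

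Chaperones of the endoplasmic reticulum (ER) and genes of the unfolded protein response were lower in 4 of 22 measured members (18.2%, against 2.31% of all genes) and higher in 0, with a median of -0.23 against 0 for all genes. HSP90B1, the ER form of HSP90, measured 14.14 and 14.32 at 12 h and 13.56 and 13.61 at 24 h, a difference of -0.64 ± 0.14 (limma adjusted p = 0.016). CANX, calnexin, which holds glycoproteins for folding, measured 9.80 and 9.87 against 9.13 and 9.17, a difference of -0.69 ± 0.15 (adjusted p = 0.015), with -0.33 (adjusted p = 0.17) for a second probe. PDIA4, a disulfide isomerase, measured 9.04 and 9.44 against 8.59 and 8.24, a difference of -0.83 ± 0.22 (adjusted p = 0.045). DNAJC3, an ER co-chaperone, differed by -0.44 (adjusted p = 0.039). HSPA5, the chaperone BiP, measured 7.53 and 7.66 against 7.35 and 6.86, a difference of -0.49 ± 0.18 that was not called (adjusted p = 0.13). HSPA5 had stood at 10.07 ± 0.07 (SD, n = 4) at 0 h, far above both times, while HSP90B1 at 12 h was still near its 0 h level of 14.32 ± 0.15. The count of 4 was 1 without 12 h replicate 1 and 0 without 12 h replicate 2, 24 h replicate 1 or 24 h replicate 2.

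The ER stress element of such chaperones consists of CCAAT and, after 9 bases, CCACG. Searched on both strands of the same RefSeq promoters, it was in 0.0806% of all 27305, in 6 of the 22 measured members of the ER list (CALR, CANX, CRELD2, HSP90B1, HSPA5 and XBP1), and in 2 of the 4 that fell. No match overlapped one of the E2F letters. The AP-1 letters TGANTCA, in 7.76% of all promoters, were in 2 of 8 of the 12 largest rises with a promoter entry (LGALS7 and RNASE7). The promoters of HSP90B1 (chr12:103930160-103930459, plus strand, 2 matches, one on each strand) and CANX (chr5:179698679-179698978, plus strand, 1 match) are those of the members that fell and hold it, with the letters of the element in capitals.
HSP90B1: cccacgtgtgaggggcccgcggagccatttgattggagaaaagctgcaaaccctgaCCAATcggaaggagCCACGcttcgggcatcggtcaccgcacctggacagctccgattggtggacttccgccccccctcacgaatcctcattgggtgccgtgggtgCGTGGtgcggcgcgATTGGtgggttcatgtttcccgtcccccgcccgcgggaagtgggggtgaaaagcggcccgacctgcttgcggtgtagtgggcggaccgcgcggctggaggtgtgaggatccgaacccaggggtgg
CANX: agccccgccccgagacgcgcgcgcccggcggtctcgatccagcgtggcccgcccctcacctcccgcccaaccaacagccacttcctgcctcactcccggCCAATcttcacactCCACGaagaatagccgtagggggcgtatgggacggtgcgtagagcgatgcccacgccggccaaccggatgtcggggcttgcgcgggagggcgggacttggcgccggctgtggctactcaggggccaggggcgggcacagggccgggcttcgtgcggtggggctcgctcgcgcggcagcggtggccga

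In the list of the ATF4 and CHOP response, which belongs to the same stress network, 4 of 20 measured members were higher (20%, against 4.59% of all genes) and 0 lower, with a median of 0.13. SLC38A2, a neutral amino acid transporter, measured 9.42 and 9.14 at 12 h and 10.15 and 10.09 at 24 h, a difference of 0.84 ± 0.19 (limma adjusted p = 0.019). DDIT3, the factor CHOP itself, measured 9.31 and 9.40 against 10.04 and 9.84, a difference of 0.58 ± 0.14 (adjusted p = 0.026). NUPR1, a stress-induced nuclear protein, rose by 0.97 ± 0.26 (adjusted p = 0.047) and was detected on 1 of the 12 h arrays, and PPP1R15A, which directs a phosphatase to eIF2 alpha, rose by 0.57 ± 0.13 (adjusted p = 0.023). The asparagine synthetase gene ASNS (-0.31) and the transporter gene SLC7A11 (-0.39) were not called. The count of 4 was 2 without 12 h replicate 1, 0 without 12 h replicate 2 or either 24 h array, and 0 under median scaling of the arrays.

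Among receptor tyrosine kinases and their ligands, 5 of 23 measured members were lower (21.7%, against 2.31% of all genes) and 1, AXL, was higher (4.35%, near the 4.59% of all genes), with a median of -0.14. AXL belongs to a family of 3 receptors with TYRO3 and MERTK, for which GAS6 is a ligand. TYRO3 measured 10.23 and 10.49 at 12 h and 9.56 and 9.61 at 24 h, a difference of -0.78 ± 0.14 (limma adjusted p = 0.0063). GAS6 measured 9.02 and 9.07 against 8.54 and 8.20, a difference of -0.67 ± 0.14 (adjusted p = 0.011). MERTK differed by -0.02 and was not called. AXL rose while TYRO3 and GAS6 fell, in non-overlapping arrays, as in all called genes. Neither TYRO3 nor GAS6 kept its call in the fit without 12 h replicate 2. The other falls were IGFBP5, FGFR4 (-0.80), a fibroblast growth factor receptor, and IGFBP4 (-0.79), which also binds insulin-like growth factors, while EGFR (0.39), MET (0.20) and ERBB2 (-0.30) were not called. The count of 5 was 5 without 12 h replicate 1 and 1, 2 and 3 without 12 h replicate 2 and 24 h replicates 1 and 2.

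Of 20 measured genes of TGF-beta and BMP signaling, SMAD3 was higher (5%, near the 4.59% of all genes) and 4 were lower (20%, against 2.31%), with a median of 0.01. SMAD3, which carries the TGF-beta signal to the nucleus, kept its call in each fit that left out an array. The genes that fell were ID1 (11.52 and 11.73 against 10.83 and 11.08, a difference of -0.67 ± 0.15), ID3 (-0.54), SMAD6 (-0.54) and SKIL (-0.50). ID1, ID3 and SMAD6 are textbook targets of BMP signals, and SKIL restrains SMAD proteins. A second probe of ID1 gave -0.36 (limma adjusted p = 0.2). SMAD7, the inhibitory SMAD of TGF-beta signals, differed by 0.08, and the receptor genes TGFBR2 and BMPR2 by 0 and 0.13, none of them called. The 4 falls were 1 without 12 h replicate 1 or 24 h replicate 2 and 0 without 12 h replicate 2 or 24 h replicate 1. Of 12 YAP-TEAD targets, AXL and CCN2 were higher (16.7%, against 4.59% of all genes) and 0 were lower. CCN2 rose by 0.72 ± 0.15 (limma adjusted p = 0.014). The call of CCN2 was lost without 12 h replicate 2 or either 24 h array (adjusted p = 0.12, 0.074 and 0.09) and under median scaling (0.2), which leaves AXL alone.

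Of the p53 target genes, 3 of 23 measured were higher (13%, against 4.59% of all genes) and 0 lower, with a median of 0.20. TP53I3, a quinone oxidoreductase, measured 12.61 and 12.78 at 12 h and 13.77 and 13.91 at 24 h, a difference of 1.14 ± 0.14 (limma adjusted p = 0.00045), with 0.66 (adjusted p = 0.18) for a second probe. GDF15, a secreted stress cytokine, rose by 0.60 ± 0.13 (adjusted p = 0.015) and SUSD6 by 0.60 ± 0.14 (adjusted p = 0.023). The count of 3 was 2, 1, 2 and 1 without 12 h replicates 1 and 2 and 24 h replicates 1 and 2, and TP53I3 was called in each. CDKN1A, the inhibitor p21, measured 13.77 and 13.98 against 13.90 and 13.97, a difference of 0.06 ± 0.18 (adjusted p = 0.87). It had stood at 12.91 ± 0.25 (SD, n = 4) at 0 h and was already higher at 12 h (0.97, adjusted p = 0.00044 in the same limma fit). MDM2 (0.35), FAS (-0.11) and BAX (-0.02) were not called. Among 22 apoptosis regulators, 1 was lower (4.55%, against 2.31% of all genes) and 0 were higher. It was MCL1, which restrains apoptosis (-0.54 on the log2 scale, adjusted p = 0.027). This call was lost without any 1 of the 4 arrays, and a second probe of MCL1 gave -0.27 (adjusted p = 0.36).

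In a list of collagen chains drawn up after the values were seen, 5 of 14 measured were higher (35.7%, against 4.59% of all genes) and 0 lower. COL7A1, the anchoring fibril collagen of the basement membrane, measured 8.31 and 8.35 at 12 h and 10.28 and 10.14 at 24 h, a difference of 1.88 ± 0.18 (limma adjusted p = 5.4e-05). COL4A6, of the basement membrane network, measured 6.83 and 6.45 against 8.29 and 7.81, a difference of 1.40 ± 0.23 (adjusted p = 0.0033). COL13A1 (at least 3.01-fold), COL18A1 (at least 1.43-fold) and COL5A1 (at least 1.53-fold) were not detected at 12 h, so the filter and the rise are again not separate for them. COL1A1, a fibroblast collagen, differed by 0.03. Of 8 laminin chains LAMC3 alone was higher (12.5%, against 4.59% of all genes) and 0 were lower. LAMC3 measured 7.20 and 7.27 against 9.07 and 9.08, a difference of 1.85 ± 0.24 (adjusted p = 0.00067). The laminin-332 chain gene LAMB3 differed by 0.19. ITGB2, the beta chain of leukocyte integrins, rose by 1.43 ± 0.18 (adjusted p = 0.00044). Of the leukocyte markers with a probe, 5 of 7 were not detected, PTPRC and CD3E among them, and CD68 and LYZ were detected on all 4 arrays. NOS3, endothelial nitric oxide synthase, was not detected at 12 h (4.87 and 4.84) and measured 6.12 and 6.16 at 24 h, at least 1.41-fold higher (adjusted p = 0.00021), while the endothelial markers VWF and CDH5 were not detected. CLDN2, a pore-forming claudin of leaky epithelia, measured 6.59 and 7.12 against 5.76 and 6.08, a difference of -0.93 ± 0.17 (adjusted p = 0.0061), lost without 12 h replicate 2 or 24 h replicate 1 (adjusted p up to 0.071 over the settings run).

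Other lists held few calls. In glycolysis and hypoxia 3 of 25 (12%, against 2.31% of all genes) were lower (PFKL, GPI and PGAM1, all enzymes of glycolysis, by 0.59 to 0.77 on the log2 scale) and 0 higher, a count that was 2 without 12 h replicate 1 and 0 without any other of the 4 arrays. Among 25 MAPK immediate-early and feedback genes MYC (0.65), IER3 (0.63) and SPRY1 (0.60) were higher (12%, against 4.59% of all genes). SPRY4 (-0.65) was lower (4%, against 2.31% of all genes). No rise of this list kept its call in all 4 fits without 1 array. SPRY4 lost its call without 12 h replicate 2 or either 24 h array, and its second probe gave -0.52 (limma adjusted p = 0.36). In the NF-kappaB list, with 13 genes measured, TNFAIP3, an inhibitor of NF-kappaB, was higher (0.82) and TNFAIP2 lower (-1.07). These are 7.69% each, against 4.59% and 2.31% of all genes. The call of TNFAIP3 was lost without 24 h replicate 1 (adjusted p = 0.075) and under median scaling (0.16), and that of TNFAIP2 without 12 h replicate 2 or 24 h replicate 1 (0.084 and 0.077). PPARG, a nuclear receptor of lipid metabolism, measured 9.53 and 9.68 against 8.84 and 8.75, a difference of -0.81 ± 0.14 (limma adjusted p = 0.0049), and lost its call without 12 h replicate 2 or 24 h replicate 2 (adjusted p up to 0.054 over the settings run). Over all genes 4.59% were called higher and 2.31% lower, and in 13 of the 42 lists 0 members were called. They include RNA polymerase I and ribosome assembly (0 of 26, median -0.09), cytosolic ribosomal proteins (0 of 24, median -0.11), lysosome and autophagy (0 of 20, median 0.03) and the epithelial markers (0 of 6, median 0.10). Of 20 measured genes that the text of the study names, 5 were called. CEACAM1, CDH10, SMAD3 and NOS3 were higher (20%, against 4.59% of all genes) and IGFBP5 lower (5%, against 2.31%). The study reports on these genes against untreated cells, for some as protein, and not over this interval. Some that were not called here already differed at 12 h from 0 h, such as ATF3 (2.53) and HSPA5 (-2.47), and others did not, such as AKT1 (-0.07). The call of CDH10 was lost without 12 h replicate 2 or 24 h replicate 2 (adjusted p = 0.071 and 0.072). PDGFRA, a growth factor receptor gene, was not called, but a second probe of it was lower (-0.66, adjusted p = 0.029).

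**Figure D4:**
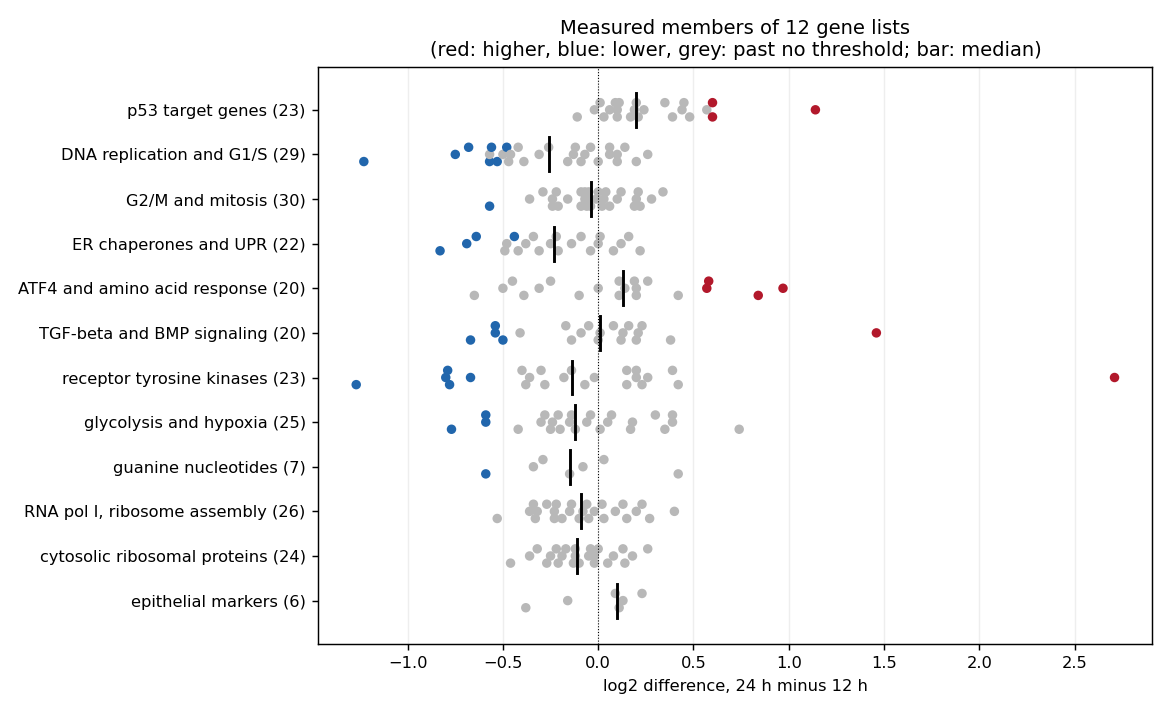
Log2 difference between 24 h and 12 h of MPA (horizontal axis) of each measured member of 12 gene lists (rows, number of members in brackets), with members called higher in red, called lower in blue and not called in grey, and a bar at the median of the list. Among the 12 lists shown, the lowest median is that of DNA replication and G1/S (-0.26) and the highest that of the p53 targets (0.20). All genes have a median of 0, and some lists not shown have higher medians.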

How the data were processed

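Illumina HumanHT-12 arrays, 12 in all, measured RNA of AGS cells, and 4 of them are compared here. The study's methods give an oligo-dT primer for labelling. The intensity of each probe was deposited by the authors without normalization or background subtraction, with a detection value per probe and array, a fraction from 0 to 1 that was deposited by the authors and is 1 minus the detection p. A second table holds log2 values that the authors preprocessed with lumi, with no version given in the sources used here. These log2 values were used as an alternative.

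Background was corrected with normexp (offset 16, negative controls inferred from the detection p), followed by quantile normalization on the log2 scale, in R 4.3.3 with limma 3.58.1 and statmod 1.5.0. GEO's platform annotation names 1 gene for 28098 of the 48803 probes, several for 13 and none for 20692. Current symbols were taken for 28059 through the gene identifier, and 39 kept the name of the annotation. A probe had to be detected on 2 or more arrays, at a detection p below 0.01, and a gene was given by its brightest kept probe, which left 10469 of 18852 genes. The offset compresses folds of dim genes. Near-identical copies (LGALS7, HSPA1A) may share signal.

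A limma model of 5 groups was fitted to all 12 arrays without covariates, and 24 h was compared with 12 h, and the mean of 48 and 72 h with 0 h, with Benjamini-Hochberg adjustment over all genes and a threshold of 0.05. Errors given with ± are moderated standard errors unless named SD. Replicate numbers were not taken as pairs: deviations of same-numbered arrays correlated by 0.06 between 12 and 24 h and by -0.14 to 0.02 between other times. Arrays of a time were distinct. The scripts were tested on simulated data. Genes named are the 12 largest rises and 12 largest falls that were called, detected on all arrays of the brighter time and not overlapping, up to 3 called members of each of 42 lists with the largest changes, genes of the study's text, and IMPDH1 and IMPDH2. Other names were chosen after their values were seen. The members, the lists and the rule were chosen with earlier results of these data known, and 6 added lists were drawn up after the largest changes were seen. Promoters and gene names came from RefSeq. The alternatives were other background settings, median scaling, the authors' log2 values, other probe filters and summaries, fewer arrays in the fit, a block for the replicate number, a variance trend, array weights, a threshold of 0.01, and each of the 4 arrays left out.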

Additional observations from a re-analysis of the deposited data

Results flagged for a closer look

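Among the 92 genes named by the rule, the 4 untreated arrays were checked for a single array standing apart from the rest, which chance alone gives in about 1 of 20 groups. This was met by 5 genes. LCN15, which was detected on none of these arrays, had a level of 5.29 on replicate 2 against 4.76 to 4.84 on the others. CBS was at 6.52 on replicate 4 against 6.81 to 6.86, and CCN2 at 11.35 on replicate 1 against 11.66 to 11.73. Replicate 3 stood apart for GATA6 (6.14 against 5.89 to 5.90) and PLXNA2 (6.92 against 7.05 to 7.07). The 0 h arrays take no part in the difference between 12 and 24 h, other than through normalization and the estimate of the spread.

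Probes that name no gene in the annotation were tested apart. Of 2697 such probes that passed the same filter, 129 rose and 50 fell from 12 to 24 h (limma, Benjamini-Hochberg adjusted p under 0.05). These shares are near the 4.59% and 2.31% of the genes with a name in the annotation. At 24 h, 114 of the higher ones lay above every 0 h array. The same share was not computed over all such probes or over the named genes, so this count is only a description. Among the rises above every 0 h array and detected on each 24 h array, the probe ILMN_1658569 had the largest difference. It measured 6.55 and 6.98 at 12 h and 9.14 and 9.33 at 24 h (2.47, limma adjusted p = 0.00016). Among the falls detected on each 12 h array, ILMN_1668463 had the largest (6.92 and 7.04 against 6.20 and 5.46, a difference of -1.15, adjusted p = 0.025). Their transcripts were not identified here.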

How the results depend on the processing

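The number of genes higher at 24 h (481) was 188 with median scaling, 317 with the 12 h and 24 h arrays alone, 211 at an adjusted p under 0.01, and 201 to 343 without 1 of the 4 arrays. The number lower (242) was 139, 126, 51 and 56 to 146 in the same settings. The number changed 2-fold or more (176) was 59 without background correction, 96 with an offset of 50, 66 with the authors' log2 values, 75 with genes detected on all 12 arrays, and 157 to 211 without 1 array. The cause was not tested. Median scaling moved the median of all genes to -0.13, and higher genes made up 57.5% of the calls against 66.5%.

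The replicate number as a block (replicate block) gave 425 higher and 207 lower genes. The numbers do not pair the arrays. The share of rises that were also higher at 48 and 72 h was 80.9% with median scaling and 79.2% with the authors' values, and that of falls also lower there 83.5% and 77.7%, and both stayed within 1 percentage point when the 12 and 24 h arrays were left out of the late comparison. Of 75 named genes that were called, 26 kept direction and call in every setting whose filter they passed. Uncalled differences near 0 changed sign under median scaling for ARRB1 (-0.04), CITED2 (-0.12) and IMPDH2 (-0.11), with the mean of a gene's probes for INF2 (-0.13), and without 1 array for ARRB1 (-0.12 to 0.27), ATF3 (-0.04 to 0.44), BSG (-0.33 to 0.10), CITED2 (-0.11 to 0.13) and ITGB5 (-0.22 to 0.06). Under median scaling the lower members were 2 in DNA replication (from 7), 2 in the ER list (from 4), 1 in TGF-beta and BMP (from 4) and 1 in glycolysis (from 3), and the higher members 1 among p53 targets (from 3) and 0 among MAPK genes (from 3). At a threshold of 0.05, 2302 genes had an unadjusted p below it.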

Other observations

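RN7SK, the 7SK small nuclear RNA that holds the elongation kinase P-TEFb in an inactive complex, was found after the values were seen and is in no list. It measured 6.74 to 7.50 on the 4 untreated arrays, 9.45 and 9.34 on the 12 h arrays and 11.27 and 11.16 on the 24 h arrays. Later arrays gave 13.95 and 13.96 (48 h) and then 15.08 and 15.01 (72 h). The difference between 24 and 12 h was 1.82 ± 0.19 (limma adjusted p = 0.00011), and that of the mean of 48 and 72 h against 0 h was 7.35. The 4 genes looked at for proteins of its complexes were not called between 12 and 24 h (limma): LARP7 differed by 0.23, MEPCE by 0.21, CDK9 by -0.46 and CCNT1 by -0.19. The small RNAs RN7SL1 (0.15) and RPPH1 (0.53) were not called either. The 7SK RNA carries no poly(A) tail in its mature form while labelling used an oligo-dT primer, and whether the signal follows its amount or its tail was not tested.

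Regulators of G protein signaling, in a list also drawn up afterwards, were higher in 3 of 10 measured members (30%, against 4.59% of all genes) and lower in 1 (10%, against 2.31%). RGS12 measured 9.90 and 9.80 at 12 h and 11.01 and 11.21 at 24 h, a difference of 1.26 ± 0.14 (limma adjusted p = 0.00019), RGS20 rose by 1.29 and RGS22 was at least 1.80-fold higher, while RGS10 was lower by 0.56 on the log2 scale (adjusted p = 0.036). Of 11 SR splicing factors, SRSF8 (0.81 ± 0.14, adjusted p = 0.0035) and SRSF3 (0.54 ± 0.14, adjusted p = 0.043) were higher (18.2%, against 4.59% of all genes) and 0 lower. The SR count was 1 without any 1 of the 4 arrays and 0 under median scaling. The RGS rises were 2 without 12 h replicate 2 or 24 h replicate 1 and 3 without either other array, and the RGS falls were 0 without any 1 of the 4 arrays and under median scaling.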
